A study of Danio rerio with 13 samples.

Results

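The comparison set muscle of zebrafish (Danio rerio) that carry 2 mutant alleles of tert (tert-/-) against muscle of wild type fish, across all genes of the deposited count table. Libraries were chosen by the strain label alone, which gave 3 tert-/- and 5 wild type libraries of the 13 in the series. All fish were males of the AB strain, aged 3 months, and the mutant line (tert hu3430) carries a nonsense change in tert in every cell of the body. The remaining 5 libraries came from tert+/- fish, with 1 mutant allele. They were not part of the contrast, but entered the estimate of the spread between libraries, the filter on low counts and the scaling. Not given in the sources used here were which muscle was sampled and whether the genotypes were siblings. The study used these fish as a model of telomeric ageing, and the comparison asks what loss of both copies of tert is accompanied by in young adult muscle.

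Telomerase copies an RNA template onto chromosome ends, and tert encodes the protein that catalyses this step. Adult skeletal muscle is made up mostly of fibres whose nuclei no longer divide, so that most telomere loss by division occurs in its stem cells and in the vessel, blood and connective tissue cells that lie between fibres. A nonsense allele stops the protein and need not stop the RNA. In zebrafish, loss of tert is known to shorten life and to affect proliferating tissues such as gut and testis first.

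Total counts of the 8 libraries lay between 10.6 and 44.1 M, the lowest being wild type replicate 5. The sarcomere actin gene actc1b, a defining marker of muscle fibres, held 73400 to 107000 CPM (counts in a total of 1e+06) in the tert-/- libraries and 66500 to 103000 CPM in the wild type libraries. Testis transcripts stood out in 2 of the 8 libraries. The germ cell helicase gene ddx4 (DDX4 in the name table, ENSDARG00000014373) was at 426 CPM in tert-/- replicate 1, at 0.0686 CPM in tert-/- replicate 2 and at 0.0453 CPM in tert-/- replicate 3. In wild type it was at 1.66, 0.0812, 0.0573, 0 and 116 CPM in replicates 1 to 5. Of the 51 tested genes of the testis list, 49 were higher in tert-/- with all libraries, and 7 of 42 without the libraries over 50 CPM of ddx4. Each result is therefore given for both sets of libraries. The first value comes from all 13 libraries, with 3 tert-/- and 5 wild type libraries in the contrast. The second comes from the 10 libraries at or below 50 CPM of ddx4, which leaves 2 tert-/- and 4 wild type libraries and is called here the fit without ddx4-high libraries. It also leaves out tert+/- replicate 1, at 180 CPM of ddx4, which enters the estimate of the spread in the fit of all libraries. Wild type replicate 1, with 1.66 CPM, stayed in both. Its mean log2 CPM over the testis list was -0.47, against -1.7, -1.41 and -1.97 in wild type replicates 2 to 4. In tert-/- replicates 2 and 3 this mean was -1.65 and -2.03. How far the lower side of the testis list in the second fit depends on wild type replicate 1 is not reported here.

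No gene passed adjustment in either fit. With edgeR's quasi-likelihood test and Benjamini-Hochberg adjustment, 0 of 19407 genes were called with all libraries (0% called, lowest adjusted p = 0.992) and 0 of 17970 without ddx4-high libraries (lowest adjusted p = 1). At an unadjusted p under 0.05 there were 496 genes with all libraries (2.56% of those tested), of which 233 were higher (1.2%) and 263 lower (1.36%). This is less than the 970 that this threshold gives where nothing differs. Without ddx4-high libraries there were 609 (3.39%), of which 353 were higher (1.96%) and 256 lower (1.42%), below the 898 of the same threshold. DESeq2 called 1 gene with all libraries and 0 without, and limma-voom called 0 with all libraries. The single gene was nlrc8, named here after its value was seen. It was lower in tert-/-, and its log2 fold change of -24.27 is too large to be read as a measured ratio. Over the tested genes the SE of the log2 fold change had a median of 0.47 with all libraries and 0.36 without ddx4-high libraries. Everything below is therefore a description of the genes and gene groups at the front of the ranking, in which no single gene passed the test.

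Scaling weighs on the direction in the fit of all libraries. The scaling factors (TMM, edgeR's trimmed mean of M-values) were 2.3 in tert-/- replicate 1 and 0.771 to 1.07 in the other 7 libraries. With library totals only, the median log2 fold change of all tested genes was 0.49, against -0.03 with TMM factors, and the genes at an unadjusted p under 0.05 were 1122 higher and 59 lower, against 233 and 263. With median-of-ratios factors they were 326 higher and 210 lower. Without ddx4-high libraries the median over all tested genes was -0.02 with TMM factors and -0.05 with library totals only. Levels below are CPM with the TMM factors of the 13 libraries. Log2 fold changes are tert-/- over wild type with their SE, and those with library totals only are to be read against the shift of 0.49.

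The tert transcript itself (TERT in the name table, ENSDARG00000042637) was counted in every library. It was at 2.02, 3.53 and 5.99 CPM in tert-/- libraries 1 to 3 and at 9.72, 4.9, 5.38, 5.86 and 6.89 CPM in wild type libraries 1 to 5. The groups overlapped, since tert-/- replicate 3 lay above 3 of the 5 wild type libraries. Its log2 fold change was -0.77 (SE 0.34) with all libraries and -0.39 (SE 0.29) without ddx4-high libraries. It was -1.25 without tert-/- replicate 3 and -0.41 without tert-/- replicate 1. Since a nonsense allele still gives countable RNA, the level of the RNA is a partial check of the labels at most.

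Among genes with lower values in tert-/-, the 12 of smallest p that had no overlap between 3 tert-/- and 5 wild type libraries are described one by one. Across all tested genes, 191 had no overlap in this direction (0.984%) and 78 in the other (0.402%). SLC38A3, a transporter that moves glutamine across the cell membrane, was at 21.3, 32.9 and 43.2 CPM in tert-/- and at 79.8, 72.2, 69, 100 and 58.6 CPM in wild type. Every tert-/- library lay below every wild type library, also on library totals. With TMM factors the 2 libraries with testis transcripts were the lowest of their own groups, which was not so on library totals. The log2 fold change was -1.23 (SE 0.31) with all libraries, -1.04 (SE 0.22) without ddx4-high libraries and -0.82 with library totals only. NDFIP2, a membrane adaptor that recruits ubiquitin ligases of the NEDD4 family, was at 26.8, 46.8 and 41.2 CPM in tert-/- and at 64, 68.3, 82.8, 107 and 70.7 CPM in wild type. Its log2 fold change was -1.04 (SE 0.31), and -0.84 (SE 0.26) without ddx4-high libraries.

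KIDINS220, a scaffold protein at neurotrophin receptors, was at 6.25, 8.43 and 7.58 CPM in tert-/- and at 35.3, 15.1, 12.4, 17 and 9.63 CPM in wild type. With TMM factors its tert-/- values were close together, all of them below the wild types, and wild type replicate 1 stood apart at the top. The log2 fold change was -1.27 (SE 0.38), and -1.26 (SE 0.36) without ddx4-high libraries. On library totals the groups of KIDINS220 overlapped, and the log2 fold change was -0.72 (SE 0.53). GRB10, an adaptor that in mammals restrains insulin and IGF receptors, was at 0.299, 0.398 and 0.441 CPM in tert-/- and at 0.931, 1.54, 1.01, 0.987 and 3.8 CPM in wild type. The highest value came from wild type replicate 5, one of the libraries with testis transcripts, and the log2 fold change was -2.1 (SE 0.6) with that library and -1.37 (SE 0.55) without ddx4-high libraries. SLC15A4, a lysosomal carrier of histidine and small peptides, had log2 fold changes of -1.2 (SE 0.34) and -1.11 (SE 0.38) in the same order.

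RXRA, the retinoid X receptor that pairs with retinoic acid, thyroid hormone and other nuclear receptors, was at 0.284, 0.398 and 0.353 CPM in tert-/- and at 0.966, 1.57, 0.782, 0.508 and 1.77 CPM in wild type. These levels rest on 12 to 19 counts per tert-/- library and 17 to 51 per wild type library. This gave a log2 fold change of -1.68 (SE 0.48) and of -1.3 (SE 0.5) without ddx4-high libraries. CRHR1, a receptor of corticotropin-releasing hormone, had 5 to 11 counts per tert-/- library and 14 to 80 per wild type library, with log2 fold changes of -2.89 (SE 0.84) and -2.81 (SE 0.98) in the same order. For JARID2, a partner of the Polycomb repressive complex, the values were -1.11 (SE 0.35) and -0.78 (SE 0.36), and for pon2, an antioxidant paraoxonase, -1.09 (SE 0.33) and -0.89 (SE 0.32). The membrane protein gene tmem176l.3a was at 0.927, 0.771 and 0.617 CPM in tert-/- and at 2.1, 1.88, 2.57, 2.48 and 2.83 CPM in wild type. The genes si:zfos-632h11.5 (-2.09, SE 0.42) and si:ch1073-329i9.1 (-1.26, SE 0.36) complete the 12. Both have names without an assigned function, and si:zfos-632h11.5 had the smallest p of the group. With library totals only, 4 of the 12 had no overlap.

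**Figure D1:**
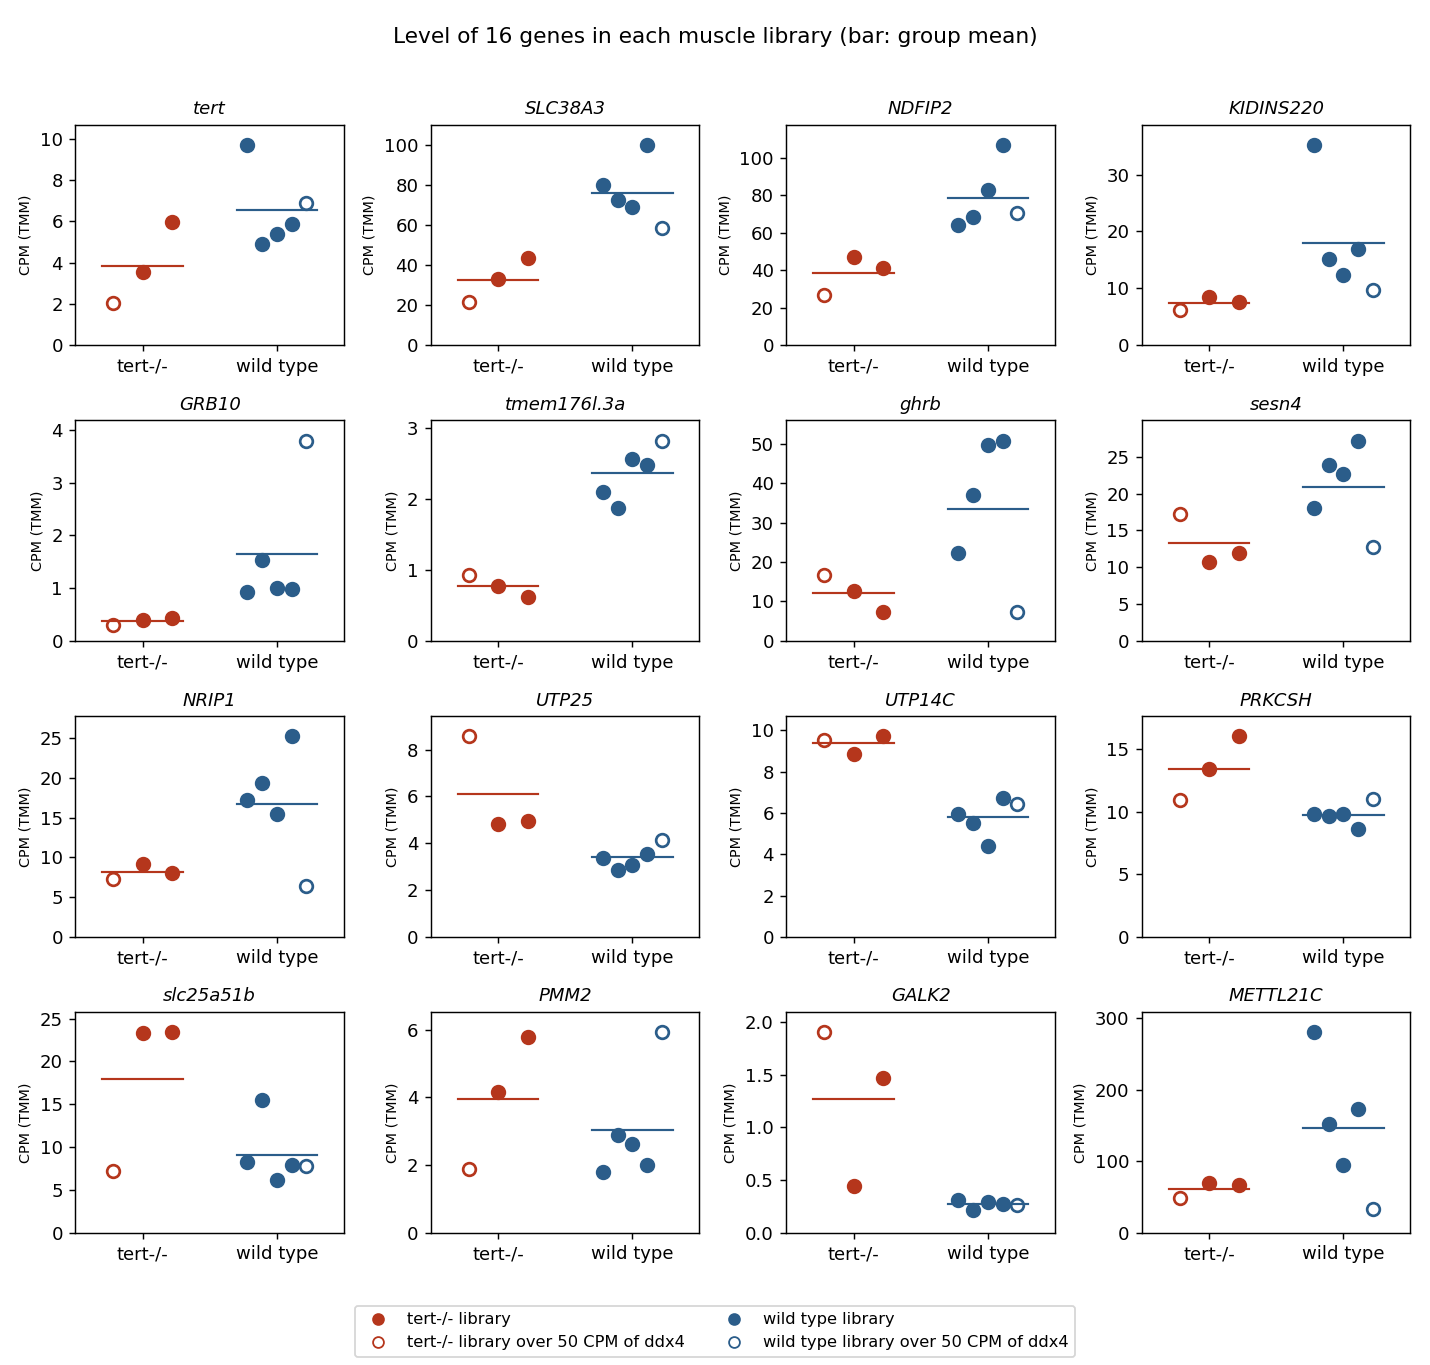
Levels of 16 genes in CPM with TMM factors (y axis, from 0) in each tert-/- library (red, left) and each wild type library (blue, right), with open symbols for the libraries over 50 CPM of ddx4 and a bar at each group mean. SLC38A3 lay at 21.3 to 43.2 CPM in tert-/- and at 58.6 to 100 CPM in wild type, while tert overlapped between the groups.

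On the higher side, the 12 genes of smallest p without overlap included UTP14C and UTP25, both members of the ribosome assembly list. UTP14C, part of the complex that processes the small ribosomal subunit RNA, was at 9.55, 8.83 and 9.7 CPM in tert-/- and at 5.93, 5.51, 4.4, 6.73 and 6.45 CPM in wild type. Its log2 fold change was 0.69 (SE 0.24), and 0.75 (SE 0.25) without ddx4-high libraries. UTP25, of the same complex, was at 8.56, 4.8 and 4.94 CPM in tert-/- and at 3.35, 2.86, 3.06, 3.53 and 4.15 CPM in wild type. The highest values of UTP25 in both groups came from the libraries with testis transcripts, and the log2 fold change of 0.85 (SE 0.27) was 0.64 (SE 0.23) without them.

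GALK2, a kinase of N-acetylgalactosamine, was at 1.9, 0.448 and 1.47 CPM in tert-/- and at 0.31, 0.216, 0.293, 0.269 and 0.265 CPM in wild type. The wild type libraries lay within a narrow range at 3 to 9 counts each, while the tert-/- libraries held 127, 18 and 50 counts. For GALK2 the log2 fold change was 2.22 (SE 0.51), and 1.84 (SE 0.57) without ddx4-high libraries. PGM2, a phosphoglucomutase that in mammals also acts on pentose phosphates, was at 4.83, 3.26 and 3.47 CPM in tert-/- and at 2.76, 2.34, 1.96, 2.09 and 2.56 CPM in wild type (0.72, SE 0.23, and 0.6, SE 0.19). The endosomal recycling gene VPS35L had log2 fold changes of 0.74 (SE 0.24) and 0.46 (SE 0.19), the lipid droplet hydrolase gene ldah 0.97 (SE 0.31) and 0.61 (SE 0.32), and the phosphatase gene mdp1 0.85 (SE 0.31) and 0.68 (SE 0.24). In VPS35L, ldah and mdp1, as in GALK2 and PGM2, the highest tert-/- value was that of replicate 1, which carried testis transcripts.

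For 2 of these genes the value lay mainly in tert-/- replicate 1. The tyrosine kinase gene tec was at 3.08, 0.995 and 0.793 CPM in tert-/- and at 0.419 to 0.759 CPM in wild type, and its log2 fold change of 1.44 (SE 0.49) was 0.63 (SE 0.42) without ddx4-high libraries. The spectrin gene sptbn4a, at 2.23, 0.398 and 0.411 CPM in tert-/- and at 0.172 to 0.353 CPM in wild type, had 1.9 (SE 0.59) and 0.7 (SE 0.47) in the same order. In both the high tert-/- value was that of replicate 1, which carried testis transcripts.

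Another 3 genes were close to absent from wild type muscle. The gene si:dkey-10f21.16, whose name carries no function, had 75, 39 and 42 counts in the tert-/- libraries and 0 counts in all 5 wild type libraries. With a floor of 3 counts over the pooled wild type libraries, it was at least 50.4-fold higher in tert-/-. A non-coding RNA gene (ENSDARG00000096862) was at 0.568, 1.59 and 1.32 CPM in tert-/- and at 0.207, 0.154, 0, 0.0299 and 0.177 CPM in wild type (log2 fold change 3.38, SE 1.19, and 3.91, SE 1.24, without ddx4-high libraries). The gene arf4b, of the ADP-ribosylation factors that start vesicle formation, was at 0.882, 0.497 and 4.94 CPM in tert-/- and at 0.0897 to 0.353 CPM in wild type, with log2 fold changes of 3.81 (SE 1.3) and 4.6 (SE 1.41). With TMM factors the 3 tert-/- libraries were close to each other for si:dkey-10f21.16 (1.12, 0.97 and 1.23 CPM). On library totals they were not, since replicate 1 held the most counts at the lowest total (29.1 M, against 43.7 and 44.1 M). For arf4b they were far apart, and its highest value was that of replicate 3. With library totals only, 6 of the 12 genes had no overlap.

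Without ddx4-high libraries other genes stood at the front of the ranking. No overlap between the 2 tert-/- and 4 wild type libraries was then found in 1004 genes on the higher side (5.59%) and 1067 on the lower side (5.94%), so that separation alone says little here. Among 17873 genes tested in both fits, 137 had an unadjusted p under 0.05 in the same direction in both (56 higher, 81 lower). These were 29.2% of the 469 such genes with all libraries and 22.7% of the 604 without ddx4-high libraries, and the 2 fits share 6 of the 8 libraries compared.

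Among lower values in this fit, the 12 genes of smallest p without overlap included SLC38A3, KIDINS220 and tmem176l.3a, named above, and sesn4, NRIP1 and ghrb. The sestrin gene sesn4, of a family that senses amino acids and stress upstream of TORC1, was at 17.2, 10.7 and 12 CPM in tert-/- and at 18.1, 23.9, 22.7, 27.2 and 12.8 CPM in wild type. NRIP1, a corepressor of nuclear receptors with a known role in muscle metabolism of mammals, was at 7.32, 9.13 and 8.05 CPM in tert-/- and at 17.2, 19.3, 15.5, 25.2 and 6.36 CPM in wild type. The growth hormone receptor gene ghrb was at 16.8, 12.6 and 7.37 CPM in tert-/- and at 22.4, 37, 49.7, 50.8 and 7.24 CPM in wild type. In all 3 genes wild type replicate 5, with testis transcripts, lay at or near the tert-/- level, and the other 4 wild types lay above all tert-/- libraries.

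For sesn4 the log2 fold change was -0.98 (SE 0.21) without ddx4-high libraries, against -0.65 (SE 0.25) with all libraries and 0.1 with library totals only. For NRIP1 the values were -1.13 (SE 0.25), -1.04 (SE 0.36) and -0.46, and for ghrb -1.98 (SE 0.5), -1.45 (SE 0.6) and -0.63. METTL21C, a lysine methyltransferase that in mammals is found mainly in muscle, was at 48.2, 69.8 and 66.9 CPM in tert-/- and at 280, 152, 94.3, 173 and 32.9 CPM in wild type. Its wild type values were widely spread, with replicate 5 below all tert-/- libraries, and the log2 fold changes were -1.3 (SE 0.39) without ddx4-high libraries and -1.25 (SE 0.51) with all. BOK, of the BCL2 family, had -1.44 (SE 0.41) and -1.31 (SE 0.44) in the same order. For uros, an enzyme of haem synthesis, they were -0.76 (SE 0.22) and -0.43 (SE 0.29), for the synaptogyrin gene syngr2a -0.84 (SE 0.23) and -0.52 (SE 0.28), and for TPD52L1 -1.31 (SE 0.36) and -0.68 (SE 0.39). The gene si:ch211-136a13.1 had -2.67 (SE 0.63) and -0.24 (SE 0.86). With library totals only in the fit of all libraries, uros (0.37), syngr2a (0.26), TPD52L1 (0.22), si:ch211-136a13.1 (1.05) and sesn4 lay on the other side of 0, though uros, syngr2a, TPD52L1 and sesn4 stayed below the median shift of 0.49.

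On the higher side of the same fit, the 12 such genes included PRKCSH, PMM2 and slc25a51b. PRKCSH, the subunit that holds glucosidase II in the endoplasmic reticulum, where it trims new glycoproteins, was at 10.9, 13.4 and 16 CPM in tert-/- and at 9.79, 9.61, 9.78, 8.58 and 11 CPM in wild type. PMM2, which makes mannose 1-phosphate for the same sugar chains, was at 1.88, 4.15 and 5.79 CPM in tert-/- and at 1.79, 2.89, 2.61, 2 and 5.92 CPM in wild type. The gene slc25a51b, whose human counterpart carries NAD+ into mitochondria, was at 7.17, 23.3 and 23.4 CPM in tert-/- and at 8.21, 15.5, 6.13, 7.89 and 7.77 CPM in wild type. For slc25a51b and PMM2, tert-/- replicate 1 lay among the wild types with these factors, while on library totals the groups of slc25a51b did not overlap.

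For PRKCSH the log2 fold change was 0.68 (SE 0.15) without ddx4-high libraries and 0.46 (SE 0.18) with all. That of slc25a51b was 1.35 (SE 0.31) and 0.98 (SE 0.48) in the same order, and that of PMM2 was 1.13 (SE 0.28) and 0.38 (SE 0.44). The mitochondrial ribosomal protein genes MRPL13 (0.81, SE 0.22, and 0.39, SE 0.39) and MRPL1 (0.72, SE 0.2, and -0.04, SE 0.46), the glycerol kinase gene GK3 (1.19, SE 0.31, and 0.77, SE 0.44) and the nucleotide kinase gene cmpk (0.74, SE 0.18, and 0.18, SE 0.31) followed. So did the granulin gene grna.1 (2.12, SE 0.54, and 1.17, SE 0.69), OGFRL1 (1.08, SE 0.29, and 0.48, SE 0.47), si:dkey-258f14.3 (1.44, SE 0.35, and 0.66, SE 0.47) and si:ch211-11k18.4 (0.71, SE 0.18, and 0.38, SE 0.4). The chitinase gene chia.1 had 8, 3 and 274 counts in tert-/- and 0, 0, 0, 1 and 1 in wild type, so that 1 library held nearly all of them. Its pooled ratio of 138 (95% counting interval 37.9 to 1150) covers counting error only.

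**Figure D2:**
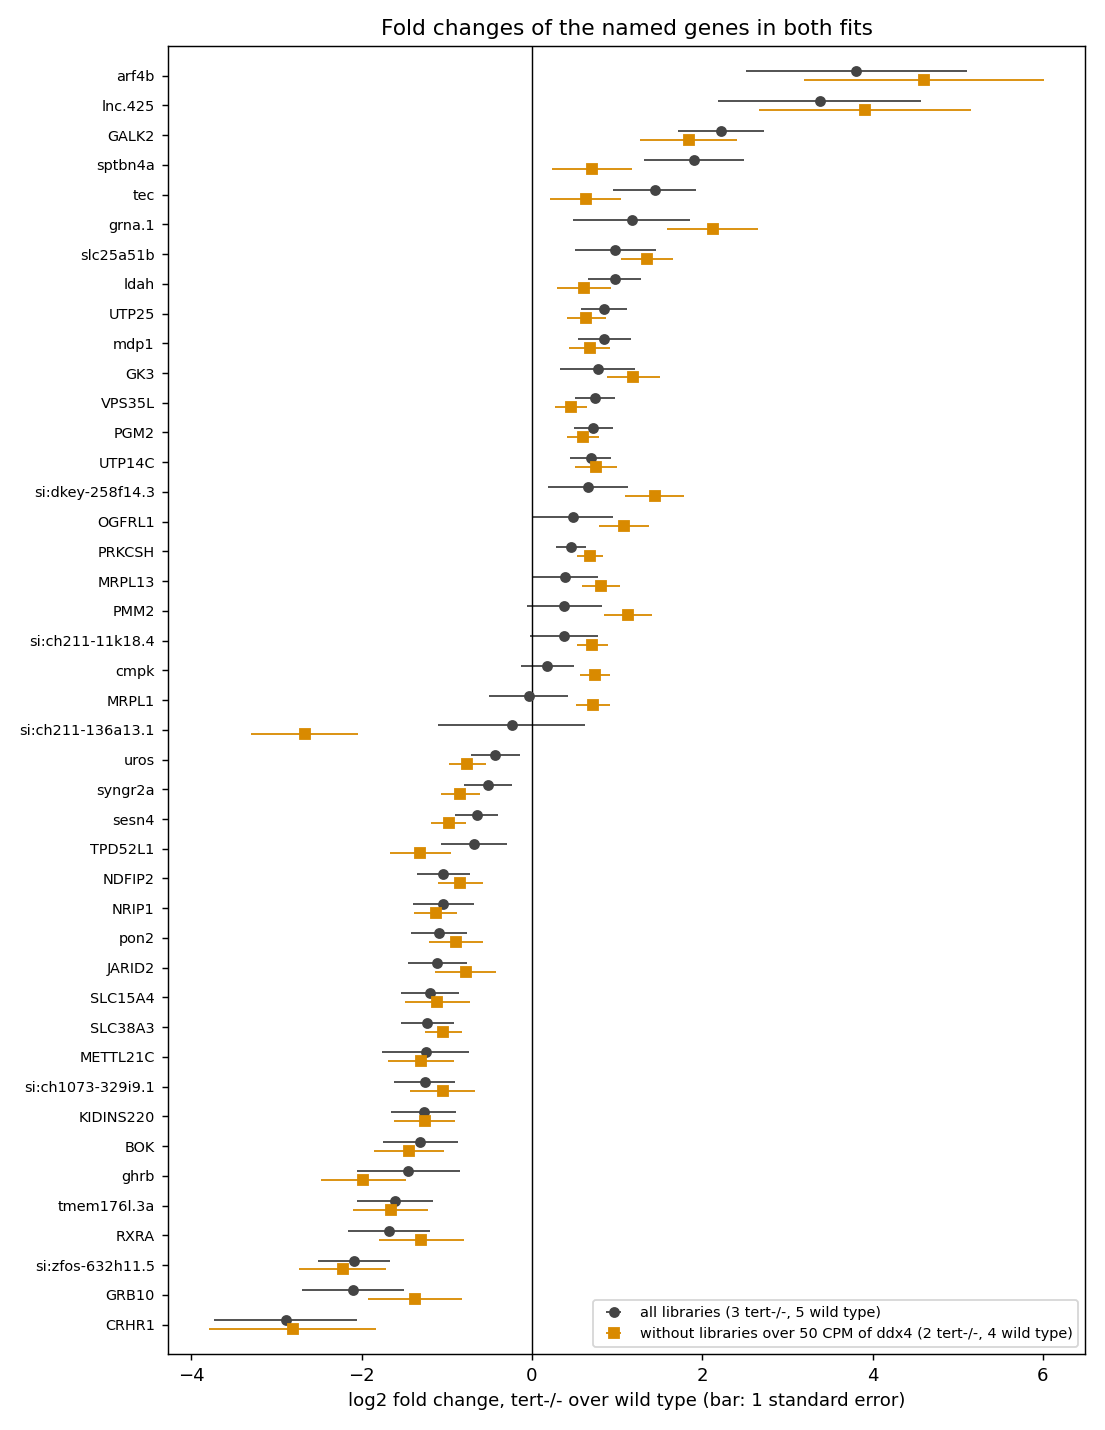
Log2 fold change, tert-/- over wild type (x axis, bars 1 SE), of the genes of smallest p without overlap, with all libraries (grey circles) and without the libraries over 50 CPM of ddx4 (orange squares). All points from CRHR1 (-2.89 and -2.81) up to uros (-0.43 and -0.76) lay below 0 in both fits, and MRPL1 lay on both sides. The genes chia.1 and si:dkey-10f21.16, nearly absent from wild type, are not drawn.

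Gene lists were described by counts and by their median log2 fold change, beside the same over all tested genes, of which 9248 were higher and 10159 lower with all libraries (median -0.03) and 8481 higher and 9487 lower without ddx4-high libraries (median -0.02). Of 42 lists, 14 lay on opposite sides of the median of all genes in the 2 fits. Another 20 kept 1 side in both fits with both TMM factors and library totals only, 7 above and 13 below. No member of any list was called.

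Ribosome assembly was the list with the most members at an unadjusted p under 0.05 without ddx4-high libraries, though not with all libraries, where the cell cycle list had more. These factors cut and fold ribosomal RNA in the nucleolus before ribosomes leave the nucleus. With all libraries 43 of 54 members were higher and 11 lower (median 0.26), 4 higher and 0 lower at an unadjusted p under 0.05. Without ddx4-high libraries 49 were higher and 5 lower (median 0.49), with 12 higher (22.2%, against 1.96% of all genes) and 0 lower at that threshold. BMS1, a GTPase of the small subunit precursor, was at 14.8, 7.98 and 13 CPM in tert-/- and at 6.1, 8.01, 6.81, 7.53 and 9.89 CPM in wild type (0.64, SE 0.24, and 0.59, SE 0.23, without ddx4-high libraries). The RNA methyltransferase gene nop2 was at 14.8, 11.4 and 18.1 CPM in tert-/- and at 7.45, 9.82, 7.36, 11.1 and 14.3 CPM in wild type (0.56, SE 0.28, and 0.76, SE 0.29). Averaged over members, the log2 CPM was 3.58, 3.4 and 4.05 in tert-/- and 3.34, 3.3, 3.18, 3.56 and 3.82 in wild type. The list thus stood highest in tert-/- replicate 3, while tert-/- replicates 1 and 2 lay between the lowest and highest wild types. Without replicate 3 the median was 0.03 with all libraries, and 0.05 without ddx4-high libraries, where replicate 2 alone then stood for tert-/-.

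With TMM factors, genes for proteins of the finished cytosolic ribosome were mostly lower with all libraries and mostly higher without ddx4-high libraries. Of 77 genes, 1 was higher and 76 lower with all libraries (median -0.39), and 56 were higher and 21 lower without ddx4-high libraries (median 0.06), with 0 at an unadjusted p under 0.05 in both fits. The mean log2 CPM was 7.45, 8.81 and 9.27 in tert-/- and 9.55, 8.83, 8.83, 8.89 and 9.16 in wild type, lowest in tert-/- replicate 1. On library totals 12 were higher with all libraries (median -0.17), and 39 without ddx4-high libraries (median 0).

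Retinoic acid receptors and their cofactors had mostly lower values in both fits with TMM factors. Retinoic acid acts through RAR and RXR receptors, which recruit coactivators or corepressors to target genes. Of 29 tested members, 4 were higher and 25 lower with all libraries (median -0.33), and 3 and 25 of 28 without ddx4-high libraries (median -0.23). In each fit 3 members had an unadjusted p under 0.05, all lower (10.3% and 10.7%, against 1.36% and 1.42% of all genes). These were RXRA and NRIP1 in both fits, kmt2a, a histone methyltransferase, with all libraries (-0.52, SE 0.2), and nr2f5, an orphan nuclear receptor, without ddx4-high libraries (-0.64, SE 0.24). The mean log2 CPM was 2.67, 2.95 and 2.87 in tert-/- and 3.24, 3.29, 3.14, 3.14 and 2.88 in wild type. Only wild type replicate 5 overlapped with tert-/-. Leaving out 1 library at a time in either fit gave medians from -0.42 to -0.2. With library totals only the median was 0.17 with all libraries, which is below the shift of 0.49, and -0.26 without ddx4-high libraries. Enzymes and carriers of retinoids had 11 members higher and 30 lower (median -0.2, and 0.28 with library totals only), and 12 and 26 without ddx4-high libraries (median -0.15), with 0 at an unadjusted p under 0.05 in both fits. Among them the retinol dehydrogenase gene RDH14 was at 2.27, 2.69 and 3.38 CPM in tert-/- and at 4.1, 4.56, 4.43, 4.27 and 3.44 CPM in wild type. With TMM factors its groups did not overlap (-0.58, SE 0.3, and -0.48, SE 0.24). On library totals they did, with tert-/- replicate 1 the highest of all, and the log2 fold change was -0.1, below the shift of 0.49.

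Insulin and IGF signalling and autophagy genes had mostly lower values in both fits as well, though not on library totals with all libraries. There 40 of 61 insulin and IGF genes were higher (median 0.12) and 41 of 51 autophagy and lysosome genes were higher (median 0.36), and both medians lay below the shift of 0.49. On library totals without ddx4-high libraries, 18 of 60 and 8 of 50 were higher (medians -0.17 and -0.2). Of 61 insulin and IGF genes, 11 were higher and 50 lower (median -0.25), and 19 and 41 of 60 without ddx4-high libraries (median -0.15), and the median was -0.09 without tert-/- replicate 1 and -0.44 without tert-/- replicate 3. Of 51 autophagy and lysosome genes, 15 were higher and 36 lower (median -0.17), and 16 and 34 of 50 without ddx4-high libraries (median -0.16). In the fit without ddx4-high libraries 1 was higher and 5 lower at an unadjusted p under 0.05 (2% and 10%, against 1.96% and 1.42% of all genes), and 10 had no overlap on the lower side (against 5.94% of all genes). BNIP3, which marks mitochondria for autophagy, was at 2.57, 6.96 and 4.64 CPM in tert-/- and at 10.9, 8.62, 10, 8.76 and 7.42 CPM in wild type. All tert-/- libraries lay below all wild types, with log2 fold changes of -0.95 (SE 0.36) and -0.68 (SE 0.26). ATG2A, which transfers lipid to the growing autophagosome, had -0.52 (SE 0.31) and -0.86 (SE 0.27), and 0.29 with library totals only in the fit of all libraries.

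Cell cycle and DNA damage response genes had higher medians with all libraries than without ddx4-high libraries. Of 85 cell cycle genes, 79 were higher and 6 lower with all libraries (median 1.25), and 75 and 6 of 81 without ddx4-high libraries (median 0.38). Their mean log2 CPM was 3.64, -0.08 and 0.53 in tert-/- and 0.64, -0.28, -0.42, -0.6 and 2.72 in wild type, highest in the libraries with testis transcripts. The median was -0.77 without tert-/- replicate 1 alone and 2.8 without wild type replicate 5 alone. With both left out, leaving out tert-/- replicate 3 as well put it at -0.01. RRM1, a subunit of ribonucleotide reductase, which supplies DNA precursors, was at 21.6, 6.82 and 10.3 CPM in tert-/- and at 8.28, 6.4, 6.09, 6.7 and 6.62 CPM in wild type (0.92, SE 0.32, and 0.36, SE 0.24). DNA damage response genes were 57 higher and 11 lower (median 0.59), and 46 and 19 without ddx4-high libraries (median 0.1). RPA2, which coats single-stranded DNA, was at 12.1, 2.39 and 2.56 CPM in tert-/- and at 2.03 to 2.56 CPM in wild type (1.24, SE 0.49, and 0.09, SE 0.2). APEX1, of base excision repair, was at 17.7, 11.4 and 25.4 CPM in tert-/- and at 10.6, 9.11, 7.92, 10.3 and 20.2 CPM in wild type (0.65, SE 0.34, and 0.99, SE 0.32).

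Targets of p53, the factor that answers to DNA damage, were spread evenly, with 23 higher and 21 lower (median 0.03), and 21 and 22 without ddx4-high libraries (median -0.06). The cell cycle inhibitor gene cdkn1a, the best known of them, was at 2.15, 0.224 and 0.588 CPM in tert-/- and at 0.655, 0.246, 0.293, 0.389 and 0.353 CPM in wild type. Its log2 fold change was 1.35 (SE 0.68) with all libraries and 0.08 (SE 0.64) without ddx4-high libraries. The gene tigarb, a regulator of glycolysis under p53, had 0.34 (SE 0.47) and 0.64 (SE 0.23). Senescence and secreted factors had 17 higher and 30 lower members (median -0.13), and 23 and 22 without ddx4-high libraries (median 0.02). Of 31 telomerase and telomere binding genes, 25 were higher and 6 lower (median 0.28), and 22 and 9 without ddx4-high libraries (median 0.14). At an unadjusted p under 0.05, 0 were higher in both fits, and 1, tert itself, was lower with all libraries. The list's mean log2 CPM was 2.98, 2.06 and 2.38 in tert-/- and 2.4, 1.97, 1.95, 2.05 and 2.68 in wild type, highest in the libraries with testis transcripts. Leaving out 1 library at a time in either fit gave medians from -0.02 to 0.46.

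**Figure D3:**
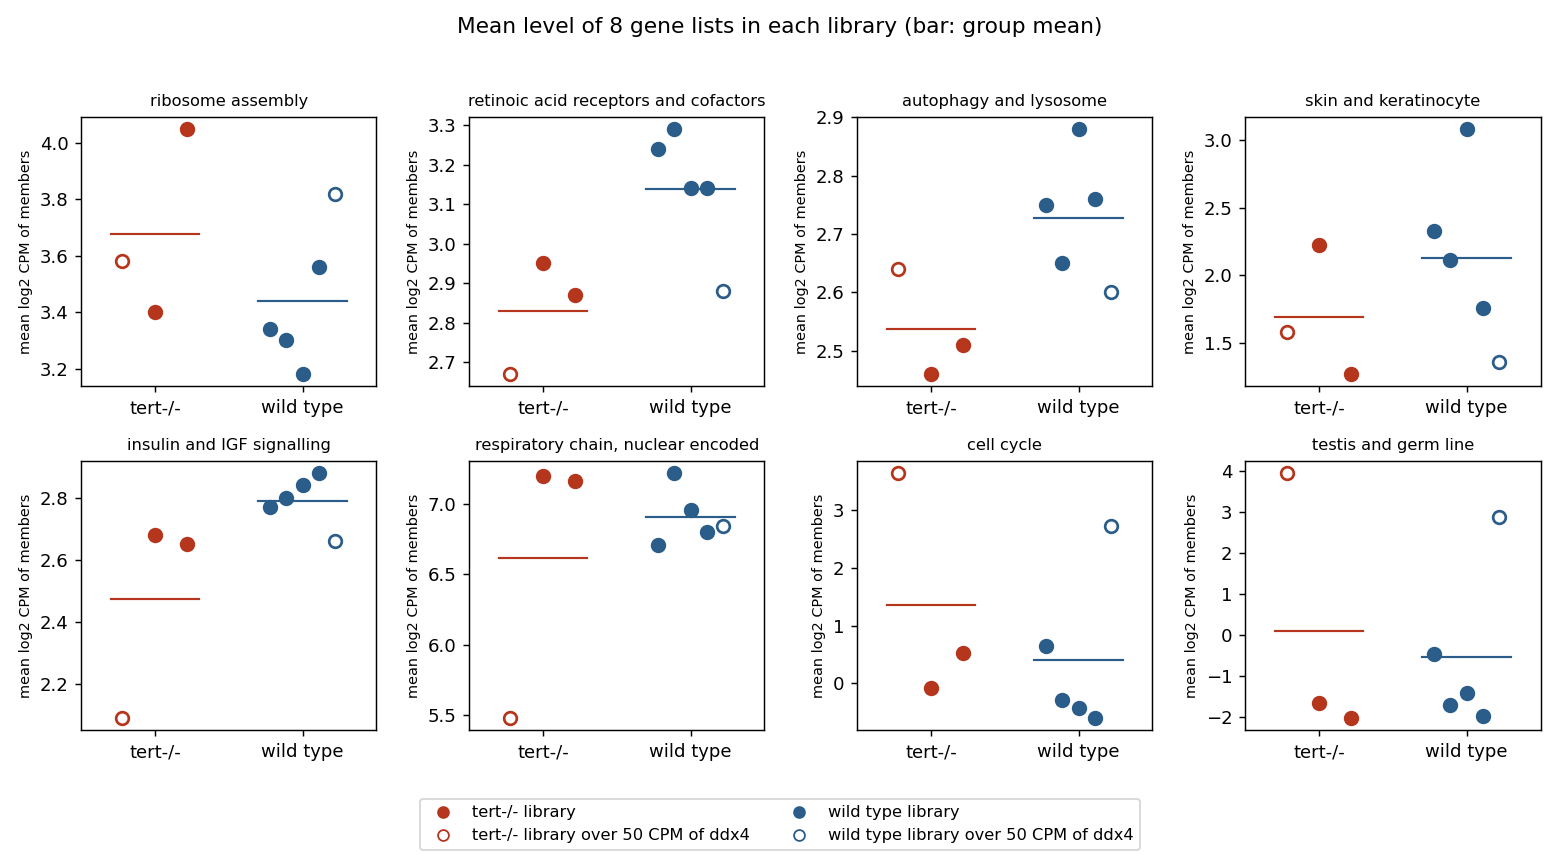
Mean log2 CPM of the members of 8 gene lists (y axis, own range in each panel) in each tert-/- library (red, left) and each wild type library (blue, right), with open symbols for the libraries over 50 CPM of ddx4 and a bar at each group mean. The retinoic acid receptor list lay at 2.67 to 2.95 in tert-/- and at 3.14 to 3.29 in wild type replicates 1 to 4, and the testis and cell cycle lists were highest in the open symbols.

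With TMM factors, the medians of the fast fibre, slow fibre and respiratory chain lists lay on different sides of 0 in the 2 fits. Those of mitochondrial biogenesis (0.02 and 0.05) and excitation-contraction coupling (-0.28 and -0.03) did not. Nuclear genes of the respiratory chain, which oxidises fuel in mitochondria, were 12 higher and 74 lower with all libraries (median -0.15), and 82 higher and 4 lower without ddx4-high libraries (median 0.24). Without ddx4-high libraries 6 were higher at an unadjusted p under 0.05 (6.98%, against 1.96% of all genes), 0 were lower, and 23 of 86 had no overlap on the higher side (against 5.59%). With library totals only, 56 of 86 were higher with all libraries (median 0.08, below the shift of 0.49). Without ddx4-high libraries 80 were higher on library totals (median 0.21). The ATP synthase gene atp5mc1 was at 82.8, 338 and 347 CPM in tert-/- and at 181, 300, 238, 209 and 283 CPM in wild type. The cytochrome c oxidase gene cox6a1 was at 23, 25.2 and 41.1 CPM in tert-/- and at 23.1, 24.5, 20.8, 18.5 and 34.8 CPM in wild type. For atp5mc1 with TMM factors, tert-/- replicate 1 was the lowest of all 8 libraries, and the other 2 tert-/- libraries were the highest. On library totals replicate 1 was not the lowest and the groups overlapped (log2 fold change 0.23). The log2 fold changes were 0.08 (SE 0.52) and 0.6 (SE 0.22) for atp5mc1, and 0.29 (SE 0.25) and 0.65 (SE 0.23) for cox6a1. The list's mean log2 CPM was 5.48, 7.2 and 7.16 in tert-/- and 6.71, 7.22, 6.96, 6.8 and 6.84 in wild type, so that 1 wild type library, replicate 2, reached the level of tert-/- replicates 2 and 3.

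Fast muscle fibre genes were 8 higher and 51 lower (median -0.28), and 37 and 22 without ddx4-high libraries (median 0.09), with 1 lower member at an unadjusted p under 0.05 in the first fit and 0 in the second. That gene was TTN (ENSDARG00000000563), a copy of the giant sarcomere protein titin. It was at 392, 1070 and 1530 CPM in tert-/- and at 1070, 3210, 1980, 1580 and 17400 CPM in wild type, and its log2 fold change was -2.34 (SE 0.97) with all libraries and -0.56 (SE 0.49) without ddx4-high libraries. The second titin gene (ENSDARG00000028213), which has the same symbol, was at 1940, 5440 and 8020 CPM in tert-/-. It was at 20400 CPM in wild type replicate 5 and at 7640 to 8270 CPM in the other wild types. Its log2 fold change was -1.04 (SE 0.59) with all libraries and -0.22 (SE 0.23) without ddx4-high libraries. With library totals only it was -0.91, and the groups did not overlap. Whether the titin genes share reads was not tested. Slow fibre genes gave medians of -0.16 and 0.15, and mitochondrially encoded genes -0.14 and 0.07, in the same order of fits. With library totals only, the medians were 0.08 and 0.16 for slow fibre genes and 0.15 and 0.05 for mitochondrially encoded genes. For fast fibre genes they were -0.08 and 0.03. Each of these medians with all libraries lay below the shift of 0.49.

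Heat shock and protein folding genes as a list had medians of 0.03 with all libraries and 0.08 without ddx4-high libraries. At an unadjusted p under 0.05 there were 0 members with all libraries and 6 without ddx4-high libraries, 5 of them higher (8.62%, against 1.96% of all genes). DNAJB11, a cochaperone in the endoplasmic reticulum, was at 13.5, 21 and 20.8 CPM in tert-/- and at 11.3, 14.9, 13.7, 16.6 and 12.6 CPM in wild type (0.42, SE 0.2, and 0.6, SE 0.18). XBP1, the transcription factor of the unfolded protein response, was at 27.5, 106 and 111 CPM in tert-/- and at 54.9, 64.6, 64.7, 82 and 98 CPM in wild type (0.16, SE 0.42, and 0.74, SE 0.22). In XBP1 with TMM factors, the 2 tert-/- libraries without testis transcripts were the highest of all and the third was the lowest. On library totals wild type replicate 5 was the highest and wild type replicate 1 the lowest (log2 fold change 0.32). HSPA14, a chaperone of the HSP70 family bound to ribosomes, was at 14.7, 14.3 and 19.7 CPM in tert-/- and at 11.4, 12.7, 11.3, 12.3 and 17.4 CPM in wild type (0.32, SE 0.22, and 0.55, SE 0.22).

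**Figure D4:**
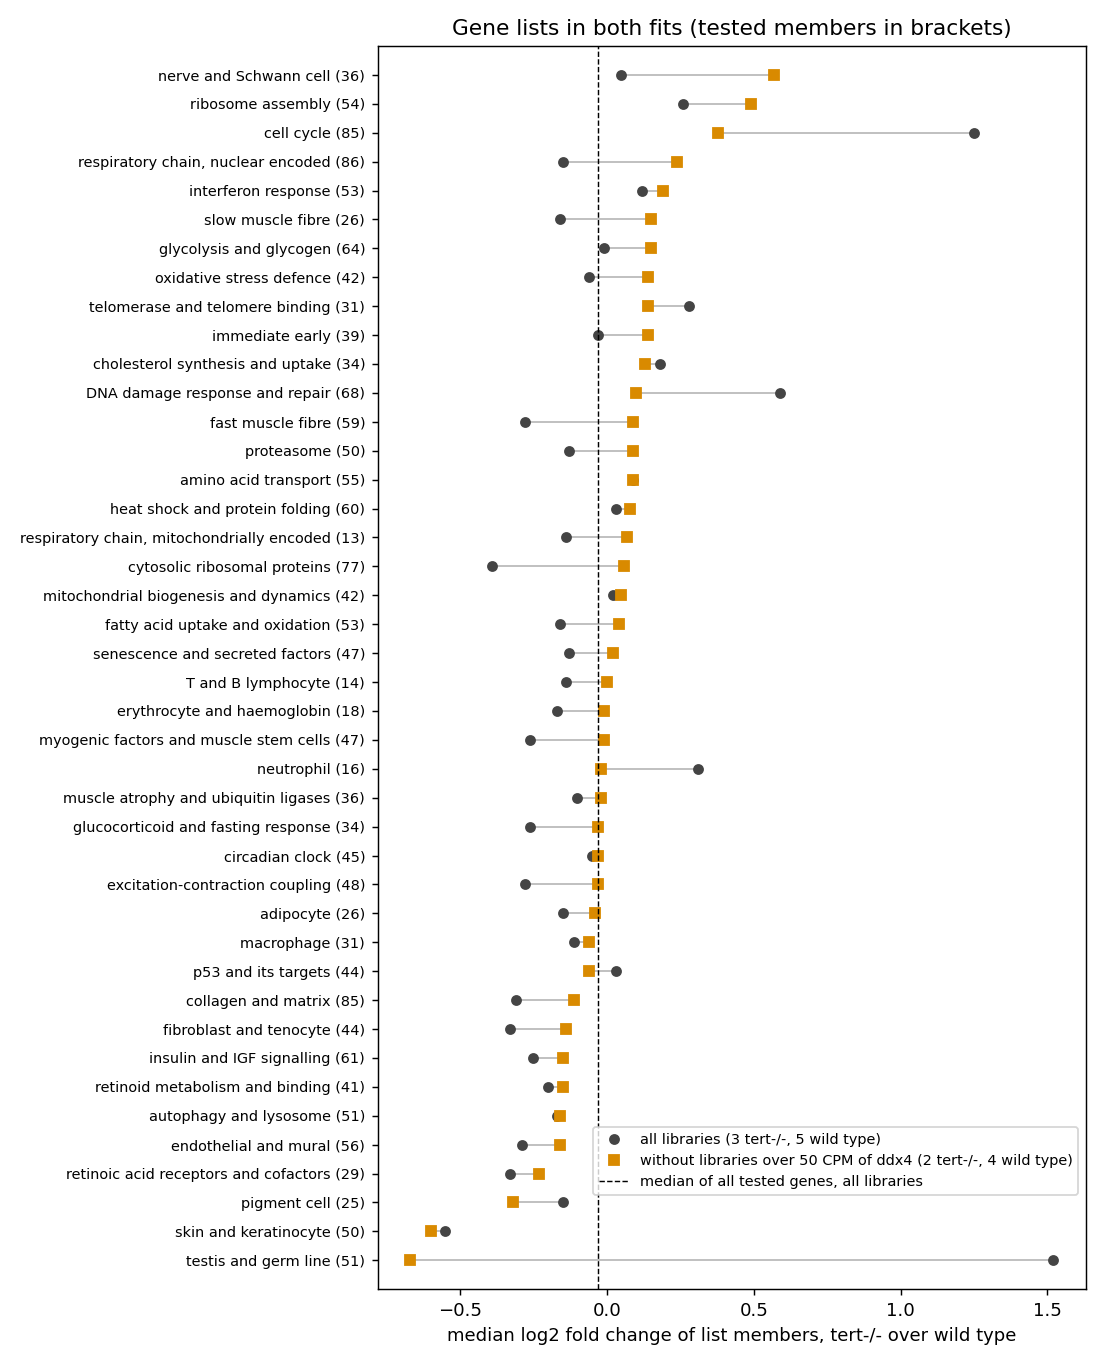
Median log2 fold change of the tested members of 42 gene lists (x axis), tert-/- over wild type, with all libraries (grey circles) and without the libraries over 50 CPM of ddx4 (orange squares), with a dashed line at the median of all tested genes (-0.03). Ribosome assembly (0.26 and 0.49) and skin and keratinocyte (-0.55 and -0.6) kept their side, while the nuclear respiratory chain (-0.15 and 0.24) did not.

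Among the lists of other cell types, the testis list aside, skin and keratinocyte genes had the lowest median. Of 50 tested members 8 were higher and 42 lower (median -0.55), and 5 and 44 of 49 without ddx4-high libraries (median -0.6). The mean log2 CPM was 1.58, 2.22 and 1.27 in tert-/- and 2.33, 2.11, 3.08, 1.76 and 1.36 in wild type, which overlapped widely. Its highest value was that of wild type replicate 3, and the median was -0.26 without that library. On library totals it was -0.09, and without ddx4-high libraries it was -0.19 when tert-/- replicate 3 was left out and -1.26 when tert-/- replicate 2 was. The keratin gene krt5 (plain CPM) was at 90.9, 103 and 38.8 in tert-/- and at 33.6, 128, 347, 91.4 and 23.7 in wild type, and krt4 at 94, 140 and 53.2 in tert-/- and at 117, 128, 168, 71.2 and 76.7 in wild type. In whole muscle, fewer cells of a type and less RNA per cell cannot be told apart, and how much skin came with each piece was not tested. The calcium binding protein gene s100w had log2 fold changes of -1.45 (SE 0.58) and -1.17 (SE 0.67), and the keratin gene krt1-19d, which had at most 47 counts in any library, -1.48 (SE 0.76) and -2.16 (SE 0.91). The type I cytokeratin gene cyt1 lay on the other side of 0, at 0.135, 0.473 and 0.382 CPM in tert-/- and at 0.276, 0.185, 0.163, 0.209 and 0.0883 CPM in wild type (0.78, SE 0.5, and 1.07, SE 0.44).

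Connective tissue and vessel genes had mostly lower values with all libraries and TMM factors, and medians nearer to 0 without ddx4-high libraries. Fibroblast and tenocyte genes gave 7 higher and 37 lower (median -0.33), and 14 and 28 (median -0.14) without them. Collagen and matrix genes gave 18 and 67 (median -0.31), and 23 and 61 (median -0.11). Endothelial and mural genes gave 6 and 50 (median -0.29), and 14 and 42 (median -0.16). With library totals only in the fit of all libraries, the medians of the fibroblast, collagen and endothelial lists were -0.03, 0.07 and 0.08, below the shift of 0.49. HSPG2, the basement membrane proteoglycan perlecan, was at 25.1, 60.1 and 57.1 CPM in tert-/- and at 88, 103, 75.1, 85.8 and 116 CPM in wild type. Its groups did not overlap, with log2 fold changes of -0.98 (SE 0.37) and -0.55 (SE 0.23). With TMM factors the same held for stab1, a scavenger receptor of endothelium and macrophages. It was at 4.68, 4.1 and 4.38 CPM in tert-/- and at 9.97, 6.16, 5.93, 5.38 and 7.15 CPM in wild type (-0.66, SE 0.24, and -0.65, SE 0.24). On library totals the groups of stab1 overlapped, with tert-/- replicate 1 the highest of all. The fibroblast transcription factor gene PRRX1 (ENSDARG00000042027) had -1.08 (SE 0.42) and -0.89 (SE 0.35), and its second copy (ENSDARG00000033971) -0.63 (SE 0.3) and -0.45 (SE 0.19). Members on the other side of 0 included SERPINH1, the collagen chaperone (0.06, SE 0.3, and 0.36, SE 0.16), and NDUFA4L2 of the endothelial and mural list (0.33, SE 0.57, and 0.65, SE 0.28).

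Nerve and Schwann cell genes were uneven, with 19 higher and 17 lower with all libraries (median 0.05). Without ddx4-high libraries 23 were higher and 13 lower (median 0.57). There 6 of 36 members had no overlap on the higher side and 4 on the lower side, against 5.59% and 5.94% of all genes. The list's mean log2 CPM was 1.37, 2.75 and 2.68 in tert-/- and 1.87, 2.83, 2.04, 2.06 and 2.65 in wild type. Wild type replicate 2 thus lay above all tert-/- libraries. Leaving out 1 library at a time in either fit gave medians from -0.32 to 0.67. The members described here, SOX10 and prx, both lay on the lower side. SOX10, the transcription factor of neural crest derived glia and pigment cells, was at 5.41, 15.2 and 13.2 CPM in tert-/- and at 20.1, 18.7, 19.4, 20.7 and 6.54 CPM in wild type. With TMM factors the 2 libraries with testis transcripts were the lowest of both groups, and between the others tert-/- lay below wild type (-0.6, SE 0.39, and -0.44, SE 0.17). In plain CPM SOX10 was at 12.4, 14 and 10.2 in tert-/- and at 16.2, 16.4, 17, 16.8 and 6.99 in wild type. There tert-/- replicate 1 was not the lowest of its group. The Schwann cell gene prx was at 0.254, 0.895 and 2.17 CPM in tert-/- and at 1.55, 8.31, 4.3, 3.68 and 23.1 CPM in wild type (-2.88, SE 0.96, and -1.52, SE 0.74).

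Among circadian clock genes, PER1 (ENSDARG00000012499), a repressor in the clock, was at 13.8, 14.2 and 6.02 CPM in tert-/- and at 22.7, 21.8, 18.8, 20.7 and 6.71 CPM in wild type (-0.68, SE 0.4, and -1.01, SE 0.34), and NR1D1, another clock repressor, had -1.04 (SE 0.6) and -1.39 (SE 0.56). With library totals only in the fit of all libraries, PER1 stood at 0.07. The clock list had medians of -0.05 and -0.03, with 0 members at an unadjusted p under 0.05 with all libraries and 5 without ddx4-high libraries, 4 of them lower (8.89%, against 1.42% of all genes). Not given in the sources used here was the hour of sampling.

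Of the oxidative stress defence genes, the plasma selenoprotein gene selenop had log2 fold changes of -1.01 (SE 0.39) and -0.83 (SE 0.41), and GPX7, a peroxidase of the endoplasmic reticulum, 0.08 (SE 0.52) and 0.7 (SE 0.22). The low density lipoprotein receptor gene ldlrb had 1.12 (SE 0.42) and 0.63 (SE 0.37). The fatty acid carrier genes CD36, at 18, 3 and 24 counts in tert-/- and 1 or 2 counts in each wild type library, and SLC27A1 lay on opposite sides (2.35, SE 0.96, and 2.95, SE 0.99, for CD36, and -1.22, SE 0.51, and -1.37, SE 0.57, for SLC27A1).

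Genes next to tert were listed because fish that share a mutant allele also share the chromosome around it. By the gene order of the reference table (GRCz12tu assembly, chromosome 19; order only), 20 protein coding genes on each side were taken. Of these 40, 27 were matched to the count table and 23 were tested. With all libraries 9 were higher and 14 lower (median -0.1), with 1 of 23 at an unadjusted p under 0.05 (against 2.56% of all genes). Without ddx4-high libraries 7 were higher and 16 lower (median -0.13), with 4 of 23 at that threshold (against 3.39% of all genes). Of all tested genes, 52.3% and 52.8% were lower in the same order of fits. RNF139, a ubiquitin ligase of the endoplasmic reticulum, was at 6.16, 7.66 and 7.37 CPM in tert-/- and at 8.04, 10.7, 11, 13.4 and 9.01 CPM in wild type (-0.56, SE 0.23, and -0.49, SE 0.21). The semaphorin gene sema6ca was at 9.46, 4.1 and 5.26 CPM in tert-/- and at 31.6, 8.25, 9.26, 9.54 and 4.95 CPM in wild type (-1.02, SE 0.56, and -1.58, SE 0.54). The groups were apart for RNF139 with these factors, though not with those fitted without ddx4-high libraries, and for sema6ca only among the 6 libraries without testis transcripts. On library totals the values were -0.04 for RNF139 and -0.13 for sema6ca. The cathepsin gene ctss1 (1.1, SE 0.67, and 1.61, SE 0.64) and the amino acid transporter gene SLC6A18 (0.48, SE 0.88, and 1.98, SE 0.72), which follows tert directly in gene order, rested on at most 25 counts in any library. Sequence variation around tert was not tested.

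**Figure D5:**
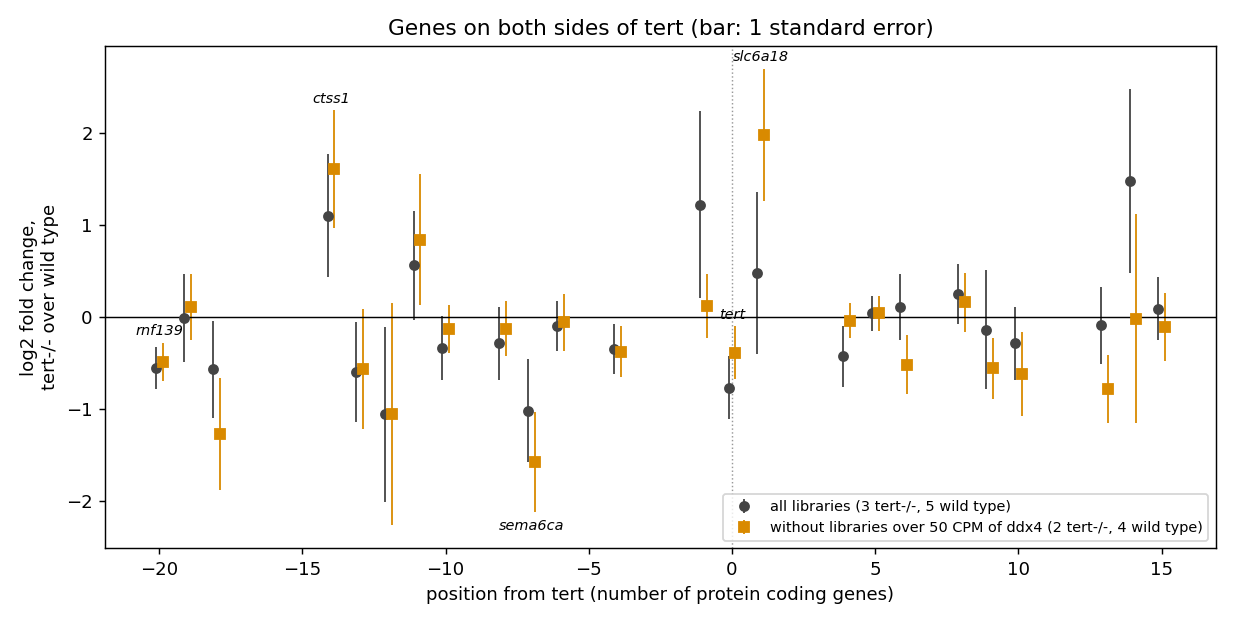
Log2 fold change, tert-/- over wild type (y axis, bars 1 SE), of the tested genes on both sides of tert by gene order (x axis, tert at 0), with all libraries (grey circles) and without the libraries over 50 CPM of ddx4 (orange squares). Of 23 neighbours 14 lay below 0 with all libraries and 16 without the ddx4-high libraries, against 52.3% and 52.8% of all tested genes.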

How the data were processed

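RNA of muscle was made into libraries with the TruSeq RNA kit v2. Per the submitters' processing notes, bcl2fastq 1.8.4, STAR 2.4.1d, featureCounts 1.4.6-p4 and the GRCz10 build were used. The paper's methods name kallisto with DESeq2 for its own analysis. Annotation release, strand setting and the treatment of multiply mapping reads were not given in the sources used here, so that reads of overlapping genes and close paralogs cannot be told apart. The authors deposited whole-number counts per gene, not normalised, for 32105 genes, of which 5049 had no count. A symbol was found for 26269 of them, and for 4144 this symbol belonged to more than 1 identifier. Symbols are spelt as the name table gives them. A deposited RPKM table was not used here, because the gene length implied by count and RPKM differed between samples.

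Counts were tested with edgeR 4.0.16 (R 4.3.3; quasi-likelihood, TMM factors, filterByExpr with genotype and a minimum count of 10), with 1 mean per genotype and 13 or 10 libraries. The threshold for a call was an adjusted p of 0.05 (Benjamini-Hochberg, over all tested genes). Replicate numbers follow the order of the sample records and are only names. P-values set the difference between genotype means against the spread between libraries, which was estimated over all 3 genotypes. That spread may in part be technical. Alternatives were DESeq2 1.42.0, limma-voom (limma 3.58.1) with sample quality weights, other factors and filters, the 8 compared libraries alone and leaving out each library. The edgeR fit was tested on simulated data.

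Genes and lists were chosen with earlier results of these data known. Named genes were tert, 5 testis markers, per direction and fit the 12 of smallest p that had a symbol, no overlap and, in the group with more, a mean of 1 CPM or above, up to 3 members of smallest p per list and fit, and neighbours of tert at an unadjusted p under 0.05. A selection of the list members, made after their values were seen, is described. Of 44 marker names 35 were matched. Shares, floors and intervals cover counting error only.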

Additional observations from a re-analysis of the deposited data

Results flagged for a closer look

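Values were looked at again where 1 wild type library lay far from the other 4, by Dixon's criterion at its 95% critical value for 5 samples (0.71). Of 94 values tested, 26 met it, 21 of them in wild type replicate 5. Chance alone marks about 1 group in 20, but most of the genes tested were picked by small p. Part of them came from the fit that leaves out wild type replicate 5, which favours genes whose other 4 wild types lie close together. The counts of 26 and 21 can therefore not be set against that rate. The 5 testis markers are among the 26 and are no test, because wild type replicate 5 was already set apart by its DDX4 level. The tert-/- group, with 3 libraries, was not tested in this way. Wild type replicate 5 had the fewest counts (10.6 M, against 34.9 M in the next library) and is over the ddx4 limit. No explanation of these values was tested.

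Wild type replicate 5 was the highest for all 5 testis markers, with 109 CPM of DDX4 (next 2.07 CPM), 118 CPM of PIWIL1 (next 1.14 CPM), 39.6 CPM of SYCP3 (next 1.1 CPM), 27.3 CPM of insl3 (next 0.276 CPM) and 12.6 CPM of amh (next 0.655 CPM). It was also the highest for both titin genes named TTN, at 17400 CPM (next 3210 CPM) and 20400 CPM (next 8270 CPM). Among genes named for small p, it was the highest for GRB10 (3.8 CPM, next 1.54 CPM), JARID2 (3 CPM, next 1.79 CPM), arf4b (0.353 CPM, next 0.13 CPM), cmpk (21.9 CPM, next 13.2 CPM), PMM2 (5.92 CPM, next 2.89 CPM), MRPL1 (16 CPM, next 6.9 CPM), si:ch211-11k18.4 (9.45 CPM, next 3.19 CPM), APEX1 (20.2 CPM, next 10.6 CPM), HSPA14 (17.4 CPM, next 12.7 CPM), CD36 (0.177 CPM, next 0.069 CPM) and SLC6A18 (0.971 CPM, next 0.207 CPM). It was the lowest for SOX10 (6.54 CPM, next 18.7 CPM) and PER1 (6.71 CPM, next 18.8 CPM).

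Other libraries stood apart in 5 genes. Wild type replicate 1 was the highest for KIDINS220 (35.3 CPM, next 17 CPM), sema6ca (31.6 CPM, next 9.54 CPM) and RRM1 (8.28 CPM, next 6.7 CPM). Wild type replicate 2 was the highest for slc25a51b (15.5 CPM, next 8.21 CPM), and wild type replicate 4 the lowest for RPA2 (2.03 CPM, next 2.43 CPM).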

How the results depend on the processing

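No gene was called in any setting except with DESeq2 on all libraries (1 gene, nlrc8), and leaving out each library gave 0 to 0. At an unadjusted p under 0.05 there were 496 genes with edgeR on all libraries, 839 with limma-voom, 774 with DESeq2 without ddx4-high libraries, 1181 with library totals only and 786 with no filter on low counts. The split was 326 higher and 210 lower with median-of-ratios factors, and 451 and 335 with no filter. Leaving out 1 library gave 218 (without tert-/- replicate 1) to 1726 genes (without wild type replicate 5, 1371 of them higher), with 1021 without tert-/- replicate 2 and 932 without tert-/- replicate 3, and 1169 and 1206 without ddx4-high libraries when tert-/- replicate 2 or wild type replicate 1 was also left out. The log2 fold change of tert was lower in tert-/- throughout, at -1.25 to -0.06 over these. No paired analysis was possible because the replicate numbers are names only, with no pairing in the labels.

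Of 92 named genes, 84 kept their direction with library totals only, where MRPL1 stood at 0.16, sesn4 at 0.1, si:ch211-136a13.1 at 1.05, TPD52L1 at 0.22, syngr2a at 0.26, uros at 0.37, ATG2A at 0.29 and PER1 at 0.07. Without ddx4-high libraries 86 kept it. The values there, with edgeR and DESeq2, were 0.72 and 0.72 for MRPL1, -0.76 and -0.84 for insl3, -1.18 and -1.2 for PIWIL1, -2.88 and -2.94 for DDX4, -0.64 and -0.64 for amh and -2.13 and -2.19 for SYCP3. With all libraries, MRPL1 was at 0.00 with DESeq2 and at 0.47 with limma-voom, and SYCP3 at -0.14 with limma-voom. The cause was not tested. Most of the 92 genes were picked by small p in the fit of all libraries or in that without ddx4-high libraries. These 2 fits share most of the libraries compared, so that the counts of 84 and 86 are no test of the directions. The reversed testis markers are no test either, because libraries were left out by their DDX4 level.

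Leaving out 1 library moved these log2 fold changes across 0: cmpk (-0.09 to 0.87), PMM2 (0.00 to 1.34), MRPL13 (-0.1 to 1.09), MRPL1 (-0.39 to 0.9), si:ch211-136a13.1 (-3.31 to 0.39), insl3 (-6.89 to 8.57), PIWIL1 (-7.03 to 7.89), DDX4 (-8.23 to 7.08), amh (-3.52 to 3.86), SYCP3 (-6.34 to 5.86), TTN (ENSDARG00000028213, -1.51 to 0.02), cox6a1 (-0.02 to 0.95), atp5mc1 (-0.2 to 0.75), XBP1 (-0.12 to 0.86), cdkn1a (-0.78 to 1.79), GPX7 (-0.39 to 0.89), SERPINH1 (-0.24 to 0.47) and NDUFA4L2 (-0.2 to 0.86). Fits that leave 1 tert-/- library assume that it varies like the other groups. With 3 or 2 tert-/- libraries, differences near the median SE of 0.47 or 0.36 were not detectable at this depth and number. Much larger ones were not called either, such as -2.09 (SE 0.42) for si:zfos-632h11.5 and -2.89 (SE 0.84) for CRHR1 with all libraries. The lack of calls therefore does not show that differences of such size are absent.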
